A study of Homo sapiens with 4 samples.

Results

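Circular RNAs (circRNAs) that the deposited table calls intronic, on nuclear chromosomes, made up 1869 of the 9405 circRNAs with a read in exosomes of pancreatic cancer cells. They were taken as the rows of that category, on any chromosome other than chromosome M, with at least 1 back-splice junction read over 4 libraries. A junction read is a sequencing read that joins the end of a stretch of the genome to its own start. The table lists 2462 nuclear intronic circRNAs, and 593 of them had no read in these libraries. Just inside that limit were 2 circRNAs with 1 read in all and 875 with 2 reads in all. The 1869 circRNAs carried 5795 junction reads and 1605 host names, and 1401 hosts had a single intronic circRNA.

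Exosomes are small vesicles that cells release. The study compared exosomes of irradiated pancreatic cancer cells, given 10 Gy of X-rays (libraries B1 and B2), with exosomes of cells without irradiation (A1 and A2). Each library is labelled with 4 established human pancreatic carcinoma lines, MIA PaCa-2, PANC-1, BxPC-3 and SW1990, so the line behind a library is not known here. RNA depleted of ribosomal RNA was sequenced as strand-marked total RNA, and no step that digests linear RNA is named for these libraries. Nothing says that the 2 libraries of a group came from separate cultures, so p-values measure only the spread between these libraries. Whether the column named B2 is the library that the study calls B2 could not be settled from the sources used here. The number of circRNAs that the study's supplement lists for B2 differs from that of the column, which the other columns do not show beyond a single circRNA, so every B2 value below is that of the column.

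Introns are normally cut out of a transcript as a lariat, a loop closed between the 5′ splice site and the branch point near the 3′ end of the intron, and then opened and degraded. Stable circular intronic RNAs are known as lariats that escape this opening, so that they begin at the 5′ splice site and end near the branch point, and they are known mainly from the nucleus. Most other circRNAs are closed by back-splicing, in which the splicing machinery joins a downstream 5′ splice site to an upstream 3′ splice site, with AG just before the circle and GT just after it. Back-spliced circles that hold exons are the common kind in the cytoplasm. A circle in an intron can also come from an exon that the annotation lacks, and pairs of repeats can make a read look as if it joined the 2 ends.

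The genomic letters at the ends show the frame in which these circles were called. The 5 circles below are the PILRB, ZNF91 and DISC1 circles, which were among the most abundant, and the RYR2 and NCAPD2 circles, which were read in both libraries of a group. Each line gives 20 bases on either side of an end, on the strand that the table lists, with the 2 bases just outside the circle in capitals. The sequences are of GRCh37, whose nuclear chromosomes are those of hg19.
PILRB, start: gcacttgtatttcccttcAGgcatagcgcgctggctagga
PILRB, end: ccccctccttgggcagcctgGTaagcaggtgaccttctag
ZNF91, start: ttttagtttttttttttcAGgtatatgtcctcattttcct
ZNF91, end: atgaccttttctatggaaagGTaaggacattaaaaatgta
DISC1, start: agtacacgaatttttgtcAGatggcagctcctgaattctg
DISC1, end: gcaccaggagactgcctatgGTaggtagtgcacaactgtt
RYR2, start: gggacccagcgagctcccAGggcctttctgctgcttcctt
RYR2, end: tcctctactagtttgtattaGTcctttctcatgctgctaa
NCAPD2, start: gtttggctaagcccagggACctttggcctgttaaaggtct
NCAPD2, end: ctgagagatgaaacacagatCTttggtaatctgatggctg
PILRB (chr7:99952766-99953427), ZNF91 (chr19:23541232-23545527), DISC1 (chr1:231928640-231954263) and RYR2 (chr1:237452272-237452648) showed AG before the start and GT after the end. NCAPD2 (chr12:6619445-6619698) showed AC and CT, which is the same motif read from the other strand. Of the 1869 circles, 1868 had the motif on one strand or the other, and 1 had it on neither.

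The circles that begin exactly with an intron are shown because that is where a lariat circle would begin. Capitals mark the 6 bases with which the annotated intron opens in the start lines, and the 2 bases after the circle in the end lines.
MYT1L, start: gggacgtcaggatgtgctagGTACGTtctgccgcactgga
MYT1L, end: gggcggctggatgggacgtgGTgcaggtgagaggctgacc
SCUBE1, start: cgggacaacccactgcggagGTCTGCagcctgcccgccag
SCUBE1, end: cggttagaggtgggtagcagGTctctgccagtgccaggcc
TNFSF12, start: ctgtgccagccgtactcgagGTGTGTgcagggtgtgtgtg
TNFSF12, end: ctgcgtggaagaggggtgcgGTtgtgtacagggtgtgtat
AKT1, start: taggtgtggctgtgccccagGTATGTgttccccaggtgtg
AKT1, end: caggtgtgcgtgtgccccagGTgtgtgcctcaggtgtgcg
MAPK8IP3, start: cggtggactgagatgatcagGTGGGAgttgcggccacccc
MAPK8IP3, end: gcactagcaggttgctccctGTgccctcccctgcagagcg
NFYA, start: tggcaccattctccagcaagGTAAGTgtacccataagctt
NFYA, end: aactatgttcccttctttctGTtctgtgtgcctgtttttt
All 6 were preceded by AG, the last 2 bases of the exon, and opened with GT. The MYT1L circle spanned chr2:1863526-1863933, SCUBE1 chr22:43624858-43625077, TNFSF12 chr17:7452936-7453120, AKT1 chr14:105243744-105243905, MAPK8IP3 chr16:1812483-1812659 and NFYA chr6:41058049-41059218.

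The circles with like sequence at both ends are shown because their junction can be placed at more than 1 position. Here 30 bases lie on either side of an end, and capitals mark the run of bases that is identical in place at both ends.
XLOC_l2_011118, start: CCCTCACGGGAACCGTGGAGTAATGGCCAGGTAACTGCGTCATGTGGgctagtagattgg
XLOC_l2_011118, end: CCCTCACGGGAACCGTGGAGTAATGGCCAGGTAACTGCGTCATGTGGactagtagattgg
MUC4, start: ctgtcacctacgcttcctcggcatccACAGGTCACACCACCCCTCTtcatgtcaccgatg
MUC4, end: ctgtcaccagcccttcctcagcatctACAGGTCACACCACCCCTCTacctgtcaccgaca
ZNF776, start: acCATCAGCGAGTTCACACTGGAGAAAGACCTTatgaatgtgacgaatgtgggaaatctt
ZNF776, end: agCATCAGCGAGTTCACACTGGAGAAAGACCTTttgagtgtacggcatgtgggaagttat
The XLOC_l2_011118 circle (chr4:49313820-49319959) carried a run of 50 bases, of which the window shows the right part, and 97% of the 100 bases around its ends were alike. The ends of the MUC4 circle (chr3:195510929-195515488) were alike at 83% and those of ZNF776 (chr19:58265454-58265621) at 72%. ZNF776 was chosen after its values were seen, for its short repeat unit.

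The libraries held between 5756 and 15150 junction reads in all, and between 1861 and 3492 circRNAs. Chromosome M circRNAs took 22.2% of the reads in A1 and 15.1% in A2, but 0.264% in B1 and 1.25% in B2. Exonic circRNAs of nuclear chromosomes had 3 reads in A1 and 4 in A2, against 10068 in B1 and 2066 in B2. Any share of junction reads therefore has a different denominator in the 2 groups, and the part of this in the results was tested only with other denominators.

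Nuclear intronic circRNAs were numerous in all libraries and made up a smaller share of the irradiated ones. A1 held 534 of them with 1520 reads and A2 held 663 with 1938 reads. B1 held 338 with 1283 reads and B2 held 352 with 1054 reads. Both control libraries were thus above both irradiated libraries in number and in reads. As a share of all junction reads they took 23.2% in A1 (95% Wilson interval 22.2 to 24.3), 23.9% in A2 (23.0 to 24.9), 8.47% in B1 (8.04 to 8.92) and 18.3% in B2 (17.3 to 19.3). These intervals cover counting error only. The group means were 23.6% ± 0.506 (SD, n = 2) in control and 13.4% ± 6.96 (SD, n = 2) in irradiated libraries. The difference of -10.2 percentage points gave p = 0.333 in an exact two-sided permutation test, the smallest p that 2 libraries against 2 allow.

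**Figure D1:**
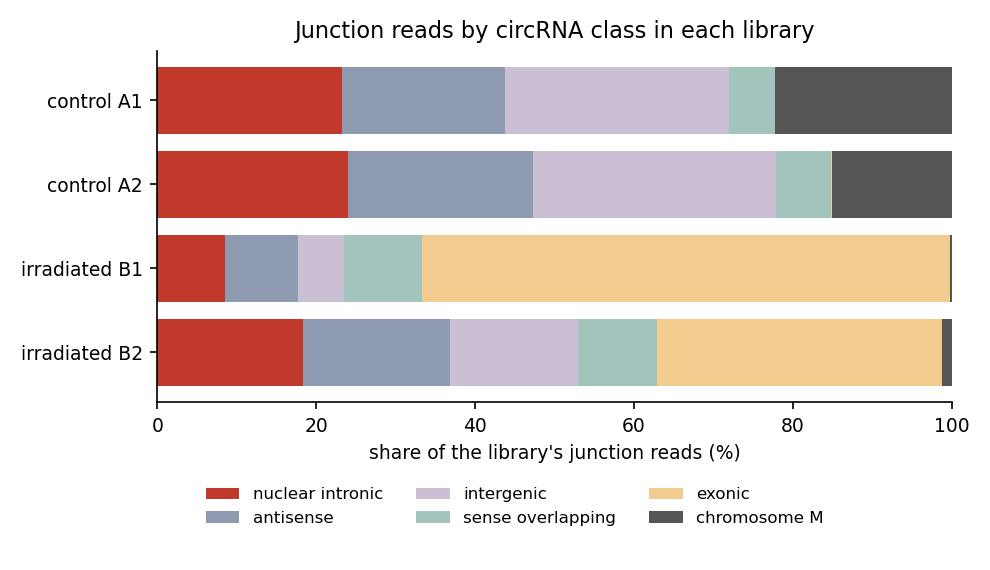
Bars show the share of each library's junction reads (%) by circRNA class, for control A1 and A2 and irradiated B1 and B2. Nuclear intronic circRNAs take 23.2% and 23.9% of the reads in the control libraries and 8.47% and 18.3% in the irradiated ones, where exonic circRNAs take 66.5% and 35.9%.

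The share of circRNAs, rather than of reads, was 26.0% in A1, 26.7% in A2, 9.68% in B1 and 18.9% in B2. The difference of means was -12.1 percentage points (exact permutation p = 0.333). Among reads of circRNAs not in circBase, the public catalogue of circRNAs, nuclear intronic ones took 23.2% in A1, 24.0% in A2, 21.6% in B1 and 27.0% in B2. With that denominator the groups overlapped, and the difference of means changed sign to 0.70 percentage points (exact permutation p = 1). Of circRNAs not in circBase, 26.1% in A1, 26.7% in A2, 21.7% in B1 and 27.8% in B2 were nuclear intronic (difference of means -1.64 percentage points, exact permutation p = 1), a denominator chosen after the data were seen.

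A given intronic circle was seldom read in a second library. Of the 1869, 1851 had reads in 1 library, 18 in 2 libraries and 0 in 3 or 4. Reads in 2 or more libraries were found for 0.963% of the nuclear intronic circles, 0.645% of intergenic, 1.46% of antisense, 3.14% of sense overlapping and 11.1% of exonic circRNAs. Hosts recurred more than circles, as 1450 hosts had reads in 1 library, 137 in 2, 17 in 3 and 1, BCAS3, in all 4. The groups shared 4 circles, while 1184 were read in control libraries alone and 681 in irradiated libraries alone. A circle read in 1 library cannot be shared by the groups, and 1851 of the 1869 were of that kind. Of all circRNAs, 95.2% were read in 1 library, so reads in 1 group alone do not set the intronic circles apart.

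The circles seen in both control libraries numbered 9. XLOC_l2_011118 had 11 reads in A1 and 3 in A2, and 0 in B1 and B2. RYR2, the calcium release channel of heart muscle, had 2 reads in A1 and 7 in A2, and 0 in both irradiated libraries. AC026188.1 had 4 and 2 reads in A1 and A2. In the same libraries B3GALT5, a galactosyltransferase of glycolipids and glycoproteins, had 1 and 4 reads. FBXL7, an F-box subunit of ubiquitin ligases, had 1 and 4 reads, and RP11-73G16.2 had 1 and 3. ZNF529 had 3 and 1, MSI2, an RNA-binding protein of stem cells, had 2 and 1, and SEMA4F, a semaphorin, had 2 and 1. All 9 had 0 reads in B1 and B2.

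The circles seen in both irradiated libraries numbered 5, and none of them was read in control. The ZNF91 circle, from a zinc finger gene known as a repressor of retrotransposons, had 16 reads in B1 and 4 in B2. NCAPD2, a condensin subunit, had 11 and 1, MIR548H4 had 8 and 1, and hsa_circ_0135834 had 7 and 1. The circle listed under SNHG14 had 6 and 3. In all 5 the larger count stood in B1, the library with the most junction reads.

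The 4 circles that crossed the groups all had few reads. MUC4, a membrane mucin known in pancreatic carcinoma, had 2 reads in A2 and 2 in B2. NSUN2, an RNA cytosine methyltransferase, had 3 in A2 and 2 in B1. A further circle of XLOC_l2_011118 (chr4:49318888-49325200) had 2 in A1 and 1 in B1, and RP11-790J24.1 had 1 in A2 and 2 in B2. Per junction read of the group, NSUN2 was 2.14 times as frequent in control (exact 95% interval 0.245 to 25.6). The interval for MUC4 ran from 0.104 to 19.7 around 1.43, so a difference of either was not detectable at this depth.

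**Figure D2:**
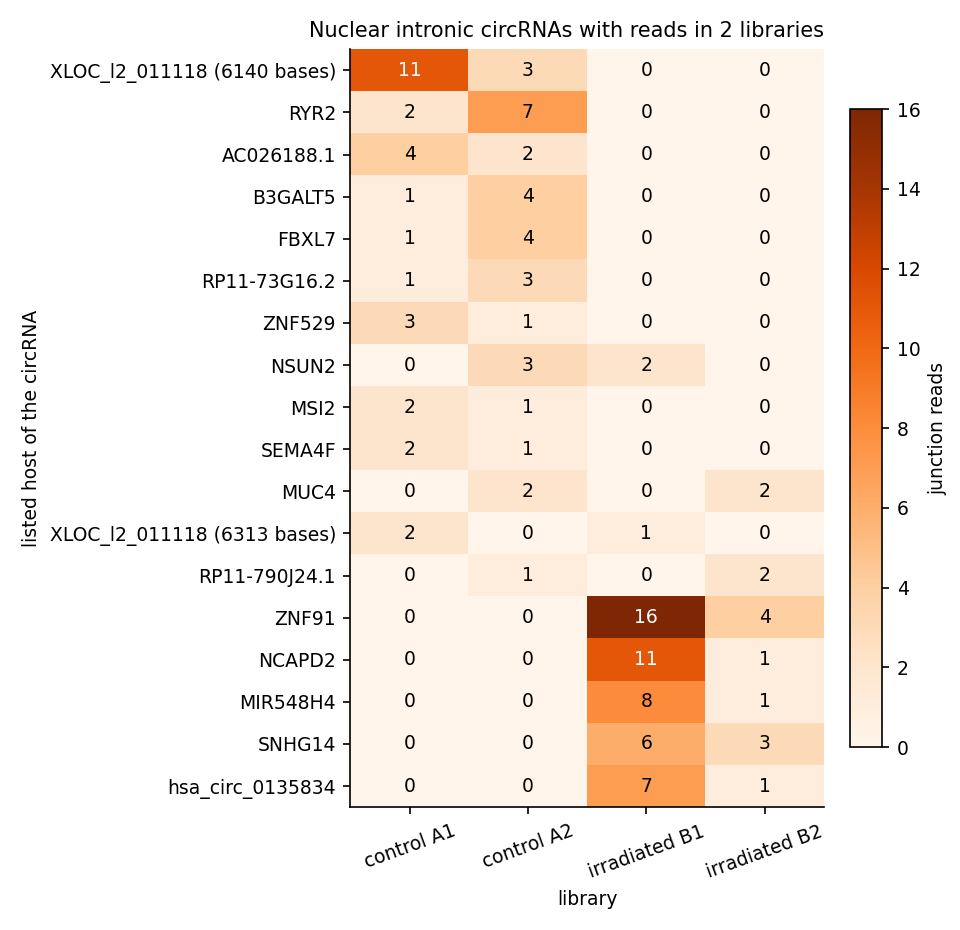
Each row is 1 of the 18 nuclear intronic circRNAs with reads in 2 libraries, and numbers and shading give the junction reads in each library. The upper rows are read in the control libraries and the lower rows in the irradiated ones, and 4 rows have reads in both groups.

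The 5 circles with the most reads were read in irradiated libraries alone, 4 of them in B1. DISC1, a scaffold protein gene named for psychiatric illness, gave a circle of 25624 bases with 24 reads in B1 and 0 in A1, A2 and B2. PILRB, an activating immune receptor, gave hsa_circ_0005925 with 21 reads in B1 and 0 elsewhere. HLA-G had 20 reads in B1 and 0 elsewhere. ZNF91 had 20 reads in all, as above. HLA-B had 17 reads in B2 and 0 elsewhere. XLOC_l2_011118, read only in control, and ZNF394, read only in B1, followed with 14 reads each. Only 12 circles reached 10 reads, and the median was 3 reads.

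The listed hosts of the HLA circles need care. The circle listed under HLA-B runs over chr6:31239376-31324219. Its lower coordinate is the edge of an exon of HLA-C and its higher one that of an exon of HLA-B, both on the minus strand. HLA-B and HLA-C encode class I molecules that present peptides to T cells, and their sequences are close to each other. The circle listed under HLA-G does not lie in a single GENCODE intron either, and its ends were alike at 93%. The ends of the HLA-B circle were alike at 26%, with a run of 2 identical bases. Reads of near-identical genes can be split between copies by the authors' alignment, and its part in these 2 circles was not tested.

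Irradiated was tested against control with edgeR's quasi-likelihood test on the 1957 circRNAs whose reads summed to 5 or more. Of the 1869 nuclear intronic circRNAs, 252 (13.5%) reached that limit. Of these, 131 had reads only in control, 120 only in irradiated libraries and 1 in both. Since 241 of the 252 were read in 1 library, these could have reads in 1 group alone. With the study's thresholds, which ask for more than a 2-fold change and p below 0.05 before adjustment, 4 of the 252 (1.59%) were higher after irradiation, against 3.53% of all circRNAs tested. None was lower, against 0.204% of all. The TMM scaling factors were 2.30 in A1 and 2.12 in A2, against 0.325 in B1 and 0.631 in B2. With them XLOC_l2_011118, with 14 reads in control alone, had an unadjusted edgeR p of 0.310. XLOC_011603, with 8 reads in B2 alone, had 0.0865, so the 2 directions were not equally easy to call. Without scaling factors 1 was called higher and 1 lower. None passed an adjusted p under 0.05, against 0.102% of all. The unadjusted count below 0.05 was 4 in edgeR and 0 in DESeq2. The median log2 fold change was -3.82 over the 252 and 5.001 over all 1957, and both medians rest on circles with 0 reads in 1 group, whose fitted values depend on the prior count. With such a group set to 3 counts, the median log2 ratio per junction read was -1.25 over the 252 and 0.22 over all 1957.

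The 4 called circles were HLA-B, ZNF91, DISC1 and PILRB, with unadjusted edgeR p-values of 0.00467, 0.0282, 0.0310 and 0.0484 in that order. The adjusted p was 0.549 for each. Of these ZNF91 had reads in both irradiated libraries, and the other 3 in a single library. Against a floor of 3 counts over the control group, per junction read, HLA-B was at least 3.97-fold higher, ZNF91 at least 4.67-fold, DISC1 at least 5.60-fold and PILRB at least 4.90-fold. Over 12 other settings in which HLA-B was fitted its edgeR or DESeq2 unadjusted p ran from 1.08e-10 to 0.177 and stayed under 0.05 in 8. The count for ZNF91 was 6 of 12, for DISC1 5 of 12 and for PILRB 3 of 12. The number called higher was 1 when A1 was left out and 0 when A2 was. It was 13 when B1 was left out and 16 when B2 was, where the remaining library of a group is assumed to vary like the other group.

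The next circles by p on the higher side were HLA-G, with an unadjusted edgeR p of 0.0563, then XLOC_011603 and ELMO1, an engulfment and cell motility protein, with 8 reads each in B2, and CTD-2315E11.1 with 7 reads in B2. On the lower side the smallest p was that of XLOC_l2_011118, 0.310 before and 0.549 after adjustment in edgeR. The floor of 3 counts puts it at least 6.66-fold higher in control. SLCO4C1, an organic anion transporter, had 10 reads in A1 and 0 in the other libraries, and PRKCH, a protein kinase C, had 10 in A2 and 0 in the others. CYYR1, MYT1L and RREB1, a Ras-responsive zinc finger factor, had 9 reads each in A1 and 0 in the other libraries. SCUBE1 and LINC00502 had 8 reads each, also in A1 alone. All 8 of the lower circles had edgeR adjusted p-values of 0.549 to 0.563, and 7 of them rested on 1 library.

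Circles already catalogued had reads only in the irradiated libraries. In circBase were 37 of the 1869, and 1 more, in PRELID2 with 5 reads in B1, came from another published set. Of the 37, 30 were read in B1, 9 in B2 and 0 in A1 and A2, with 158 reads in B1 and 21 in B2. Besides PILRB and ZNF91 the leading ones were ZNF394 (hsa_circ_0001726), a zinc finger gene, with 14 reads in B1, and RBM47 (hsa_circ_0126347), an RNA-binding protein of epithelial cells, with 9 reads in B1. ST6GAL1, a sialyltransferase, gave hsa_circ_0123084 with 8 reads in B1. In B2 alone, TCF12 and TBC1D22A had 3 reads each. The nuclear intronic share of all reads and of reads outside circBase was 23.2% and 23.2% in A1, and 23.9% and 24.0% in A2. It was 8.47% and 21.6% in B1, and 18.3% and 27.0% in B2. Thus circBase circRNAs of any category took few reads in A1 and A2. Exonic circles, which are also common in circBase, were nearly confined to B1 and B2 (3 and 4 reads in A1 and A2). Their part in the count of known intronic circles was not tested.

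The known circles differed from the others in form. Of the 37, 33 overlapped an exon of some transcript in GENCODE, against 325 of all 1869. Their median span was 3156 bases, against 463 bases for the 1832 others. All 37 had the AG and GT motif on the listed strand, against 1005 (54.9%) of the others. Exonic circRNAs had the motif on the listed strand in 100% of 2567 cases.

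A second annotation, GENCODE, was set against the listed category. Both ends of 1792 circles (95.9%) lay in 1 intron, 1414 in introns of protein coding genes and 355 in introns of long noncoding RNA genes. The remaining 77 had no such intron, among them both HLA circles and XLOC_l2_011118. The median intron was 26217 bases long, and the median circle lay 9894 bases after its 5′ end and 9461 bases before its 3′ end. Introns of over 100000 bases held 318 circles. The share in long noncoding RNA introns was 22.1% in A1, 21.0% in A2, 14.8% in B1 and 15.1% in B2, so that the groups did not overlap (exact permutation p = 0.333, the smallest possible).

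Both ends of 16 circles lay exactly at the edges of GENCODE exons, 0 of them in A1 or A2, 9 in B1 and 9 in B2. These circles have the ends of an exonic circRNA although the deposited table calls them intronic. In 5 of the 16 the motif and the exons lay on the strand opposite to the listed one. The SNHG14 circle had its ends at exons of UBE3A, a ubiquitin ligase gene that SNHG14 overlaps in antisense. The circle listed under MRPL19 matched exons of GCFC2, that under GLRX exons of RHOBTB3, that under STAG3L2 exons of GTF2I and that under a long noncoding RNA exons of NAGPA. The other 11, such as ZNF292 with hsa_circ_0004383, 2 circles of ZNF91 and TPT1-AS1 with 6 reads in B2, matched exons on the listed strand, which for HLA-B were those of both HLA genes named above.

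The strand of the motif was then set against that of the host. Of the 1792 circles within a GENCODE intron, 1744 were listed on the strand of that intron, which the category itself requires in large part. The motif stood on the intron's strand in 993 (55.4%). By library the share was 55.3% in A1, 56.3% in A2, 53.6% in B1 and 55.3% in B2. The groups overlapped, with a difference of -1.36 percentage points (exact permutation p = 0.667). The circle NCAPD2, second among those in both irradiated libraries, is an example with the motif on the other strand. Antisense circRNAs had it on the listed strand in 41.5% and intergenic ones in 53.6%.

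Intron-held circles of every category except exonic were then counted, without circBase circles and without any exon inside. They lay on the host's strand in 482 of 856 cases (56.3%) in A1 and 593 of 1081 (54.9%) in A2. In B1 the count was 242 of 396 (61.1%) and in B2 284 of 478 (59.4%). Both irradiated libraries were above both control libraries (exact permutation p = 0.333, the smallest possible). The motif of the same circles stood on the host's strand in 52.9% in A1, 54.9% in A2, 49.5% in B1 and 54.8% in B2, where the groups overlapped (difference of means -1.78 percentage points, exact permutation p = 0.667). These counts take in circRNAs called antisense or sense overlapping, since the intronic category by itself fixes the strand.

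The spans of the circles were short. The shortest was 150 bases, the quartiles were 250 and 1077 bases around a median of 479, and the longest was the HLA circle of 84844 bases. Under 300 bases were 585 circles (31.3%) and over 10000 bases 36. Intergenic circRNAs, with a median span of 476 bases, and antisense ones, with 580, were close to this, while sense overlapping ones had 2044 and exonic ones 7467 bases, introns included. The median was 520.5 bases in A1, 493 in A2, 447 in B1 and 415 in B2. Both irradiated medians were lower, with a difference of group means of -75.75 bases (exact permutation p = 0.333, the smallest possible). Without circBase circles the irradiated medians were 383 and 402 bases, a split chosen after the data were seen. Circles of 150 to 199 bases made up 11.4% in A1 and 14.6% in A2, against 18.9% in B1 and 21.0% in B2. At the other end, 20 circles of B1 spanned 10000 bases or more, against 1 in A1, 8 in A2 and 7 in B2.

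**Figure D3:**
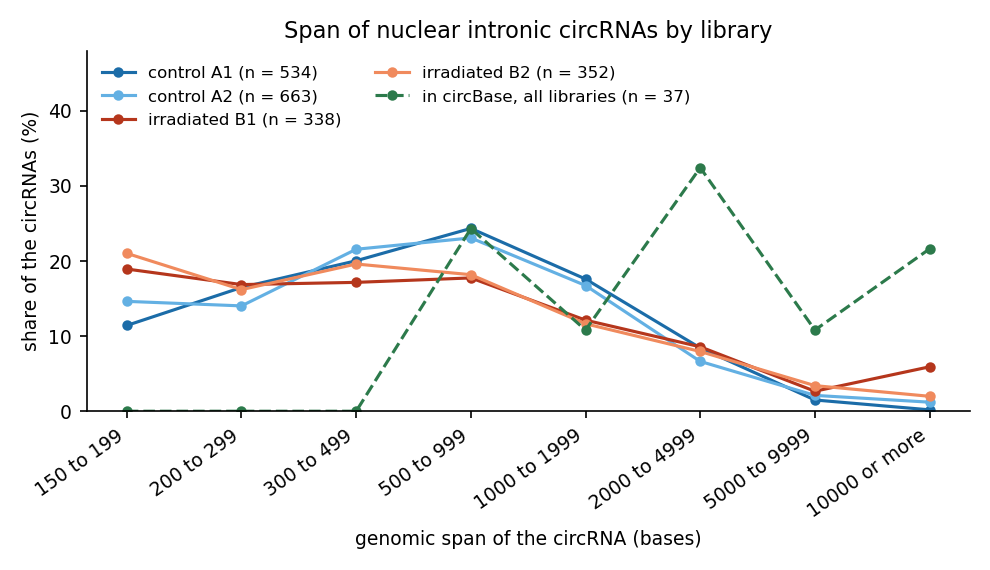
Lines show the share (%) of the nuclear intronic circRNAs of each library, and of those in circBase, by genomic span in bases. Circles of 150 to 199 bases take a larger share of the irradiated libraries (18.9% and 21.0%) than of the control libraries (11.4% and 14.6%), and the 37 circBase circles have none under 500 bases.

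Circles that begin with an intron were few and spread over all libraries. Within 2 bases of an annotated 5′ splice site began 18 circles, and 17 of them exactly at it. A1 held 5 of the 17, and A2, B1 and B2 held 4 each, with 25, 15, 13 and 12 reads. None of the 17 was seen in 2 libraries or was in circBase. Of the 17, 16 introns opened with GT. The exception was ZMPSTE24, the protease that matures lamin A, whose annotated intron opened with GC. All 17 were listed on the strand of their intron.

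By reads the leading circles of this kind were MYT1L, a neural zinc finger factor, with 9 reads in A1 and 0 elsewhere, and SCUBE1, a secreted EGF-repeat protein, with 8 in A1 and 0 elsewhere. TNFSF12, the cytokine TWEAK, had 7 in A2. LYST, a lysosomal trafficking regulator, had 4 in A1, ACACB, an acetyl-CoA carboxylase, 4 in B1, and AKT1, a kinase of growth signalling, 4 in B2. TTN had 4 in A2. The rest had 2 or 3 reads and included VIM (B2), CCND1 (A2), IGF1R (A1), CANX (B1) and NFYA (B2), with 0 reads in every other library. The circle in ZDHHC5, with 3 reads in A2, began 2 bases from a splice site.

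The other end of these circles was measured against the 3′ splice site. Since nearly all circles were called with AG and GT outside their ends, an end at a branch point could hardly appear here. Of the 17, 15 began with the intron that held them, and the intron bases left after the circle had a median of 1009 and ran from 16 to 17192. Only MAPK8IP3, a scaffold of JNK signalling, with 16 bases left, and NFYA, a subunit of the CCAAT-binding factor, with 48, ended within 50 bases of the 3′ splice site. MAPK8IP3 had 3 reads in B1 and NFYA 3 in B2. Over all circles 4 ended within 2 bases of a 3′ splice site, and 0 had both ends at splice sites of an intron. GENCODE has AG before 54.0% of its 312407 nuclear 5′ splice sites. A circle with the motif on the intron's strand can begin with an intron only at one of these. The genes ANKRD52, MCM5 and SIRT7, known as hosts of stable intronic circles, held 0 of the 1869.

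**Figure D4:**
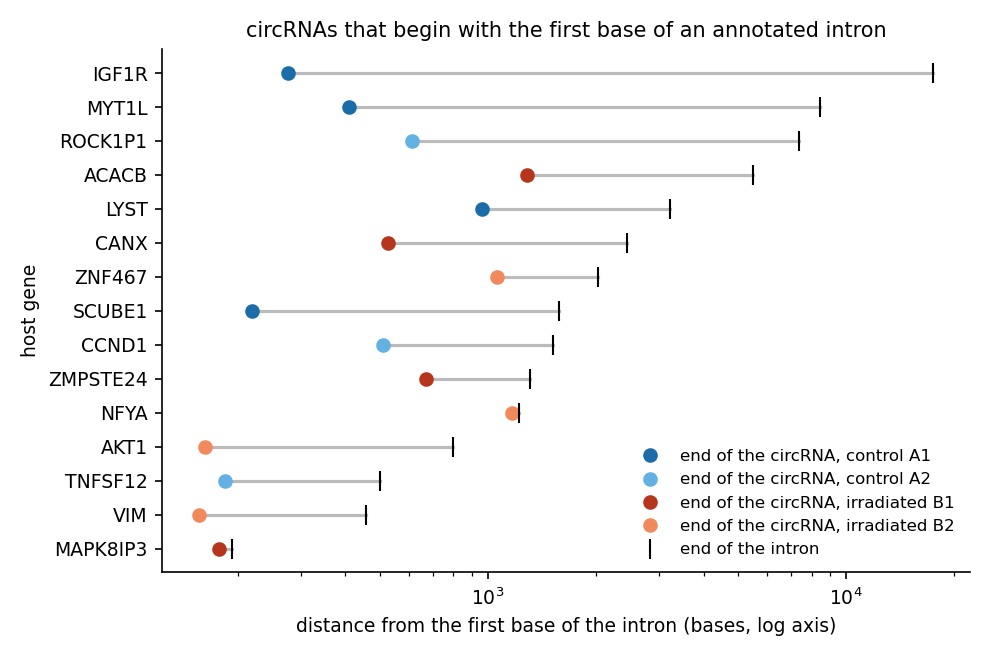
For the 15 circles that begin with the intron holding them, points mark where the circle ends and vertical ticks where the intron ends, in bases from the start of the intron on a log axis, with the colour giving the library. MAPK8IP3 and NFYA end 16 and 48 bases before the end of the intron, and the others end farther from it.

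Like sequence at both ends was common. A run of at least 10 identical bases passed through both ends of 352 circles (18.8%), at least 6 bases in 842 (45.1%) and at least 20 in 81 (4.33%). The longest run was 170 bases. Among exonic circRNAs 1 of 2567 reached 10 bases and 2.03% reached 6. The 37 circBase circles had 0 with 10 bases and 2 with 6. In other categories a run of 10 bases was found in 12.6% of sense overlapping, 14.8% of antisense and 19.4% of intergenic circRNAs. By library the share with 10 bases was 18.2% in A1, 17.0% in A2, 21.3% in B1 and 21.0% in B2, and both irradiated libraries were above both control libraries (exact permutation p = 0.333, the smallest possible). With 6 bases the order turned, at 44.4% in A1, 48.7% in A2, 39.9% in B1 and 44.03% in B2, and both irradiated libraries were below both control libraries (p = 0.333 in the same exact test).

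**Figure D5:**
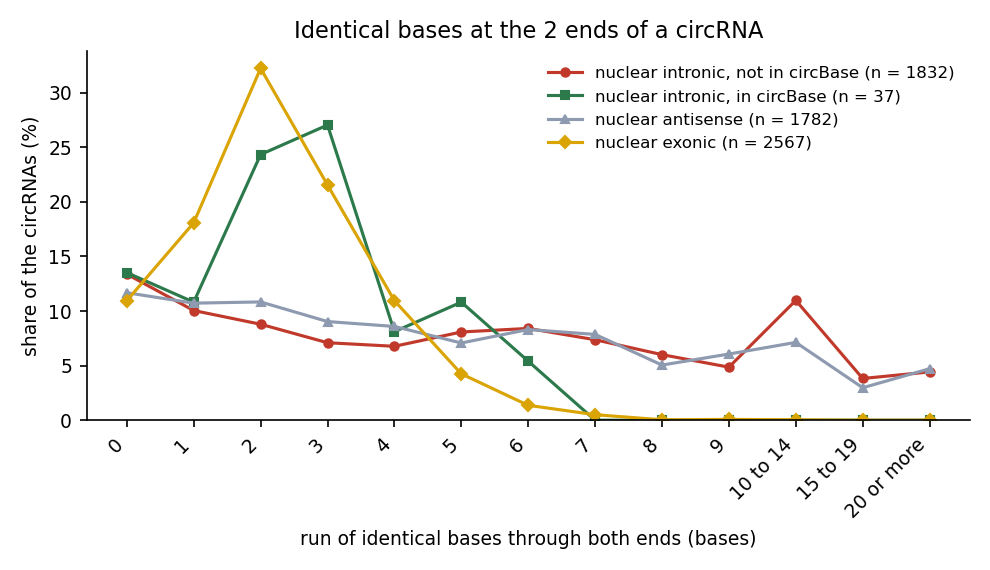
Lines show the share (%) of circRNAs by the length of the run of identical bases through both ends. The nuclear intronic circRNAs not in circBase extend to runs of 20 bases or more, as antisense ones do, while exonic circRNAs and the 37 intronic ones in circBase end at 10 and 6 bases.

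Over the 100 bases around the ends, 269 circles (14.4%) were alike at 60% or more, and none of these was in circBase. Besides XLOC_l2_011118 and HLA-G, the leading ones by reads were LOC101927314 with 11 reads in B1 and MTA3, a chromatin remodelling subunit, with 8 reads in A2. ZIM2, RBM39, EIF2B5 and the XLOC_l2_009182 circle had 7 reads each. Of the 18 circles in 2 libraries, 4 (22.2%) had such ends, namely both of XLOC_l2_011118, ZNF529 and MUC4.

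At 48 circles the sequence around the start repeated itself, matching itself at 70% or more when shifted by 6 to 120 bases, and 39 of these had like ends as well. The MUC4 circle had a unit of 48 bases at 83.8% identity, in the repeat for which this mucin is known. ZNF776 had a unit of 84 bases at 81.6%, the spacing of zinc fingers, and ZNF582 had the same unit at 70.05%. GPR133 had 45 bases at 83.6% with 4 reads in A2, and KIAA1683 had 39 bases at 76.7% in each of 2 overlapping circles with 3 reads in B2. All these named circles overlapped an exon of some GENCODE transcript, so their repeats need not be intronic sequence. Others with such a unit overlapped no exon. Among them were a TTC34 circle (chr1:2584468-2587515) with 40 bases at 80.5% and 3 reads in B2, and LOC284757 with 44 bases at 70.4% and 5 reads in A2. The threshold of this measure was chosen after the data were seen.

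The hosts with the most circles were large or repeat-rich genes. TTC34 held 8 circles with 6 reads in A1, 12 in A2, 0 in B1 and 5 in B2, and 6 of the 8 had like ends. Their best unit was 40 bases in 6 of the 8, and 2 of them shared a start. AHNAK, a giant protein built of repeats, held 5 with 0, 3, 6 and 6 reads, 4 of them with like ends. The AHNAK circles overlapped a GENCODE exon, except that at chr11:62276795-62278105. MAGI2, a synaptic scaffold, held 5 with 6, 8, 0 and 0 reads and no like ends. TBC1D22A held 5 with 5, 4, 0 and 3 reads, DIP2C 5 with 2, 4, 4 and 0, and CSMD2 4 with 7, 13, 0 and 0. The hosts with the most reads were DISC1 (30, all in B1), ZNF91 (24), TTC34 (23), PILRB (21), CSMD2 (20) and HLA-G (20). CSMD2 and MAGI2 were read only in the control libraries, and DISC1, ZNF91, PILRB and HLA-G only in irradiated ones.

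Gene lists gave a view of the hosts by role. Of 55 genes of synapses and neural adhesion, which are among the longest human genes, 31 held 50 circles, with 55 reads in A1, 75 in A2, 15 in B1 and 20 in B2. These were 3.62%, 3.87%, 1.17% and 1.898% of the nuclear intronic reads of each library, so the control libraries lay above the irradiated ones. The median intron of these circles was 148260 bases. Of the 50, 9 were tested and 0 called in either direction, beside 3.53% and 0.204% of all circRNAs. The leading circles were that of RYR2, which the list holds although it is described above by heart muscle, and 2 others. That of GPC6, a glypican, had 9 reads in B1 and 0 elsewhere. Of the 4 circles of CSMD2, 1 had 7 reads in A1 and 0 elsewhere.

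Of 31 genes at common fragile sites, 15 held 28 circles with 26 reads in A1, 29 in A2, 8 in B1 and 13 in B2. These were 1.71%, 1.496%, 0.624% and 1.23% of the nuclear intronic reads. PTPRG, a receptor phosphatase, had 6 reads in B2 in its leading circle, and LRP1B, a lipoprotein receptor relative, and PARD3B, a polarity protein, had 4 each in A2. A single circle of the 28 was tested, and it was not called.

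Genes of the DNA damage response were rare hosts. BRCA2 and BRCA1, both of homologous recombination, held 1 circle each, with 4 reads in A2 and 0 elsewhere. Of 18 exosome genes, CD81, a tetraspanin of the vesicle membrane, and TSG101, a sorting factor, held 1 circle each with 2 reads in A1. Neuronal genes held 2 circles, GRIN2B with 2 reads in A1 and GRIN2A with 3 in B1.

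Markers of tissue types gave nearly nothing. Of 18 duct epithelium genes only TSPAN8, a tetraspanin, held a circle, with 3 reads in A1. PTPRC of the blood and plasma list had 2 reads in A2, and COL3A1 of the stroma list had 4 in B2. Genes of acinar cells and of endothelium held 0 circles. Intronic circles do not measure the expression of such genes.

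Small RNA genes lay in 5 circles. MIR920 lay in a circle of SOX5 with 3 reads in B1, and MIR1250 in a circle of AATK with 2 reads in A2. RN7SKP29 lay in a circle of SLCO5A1 with 2 reads in A1. The pseudogene RN7SL5P lay in 2 circles of PTPRD that share an end, each with 2 reads in B2. At the other 1864 no small RNA gene overlapped the circle.

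A last group of 3 circles, on chromosome 1 between 565859 and 569975 and listed under RP5-857K21.4, was alike to chromosome M over 100 bases at each end, at 97% to 100%. They had 4 reads in A1, 3 in A2 and 0 in B1 and B2, and the control libraries are also those with the larger share of chromosome M reads. The part of that in this count was not tested. Their reads could be placed on either chromosome.

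Along the genome the circles lay on every autosome. Chromosome 1 held the most (166), and per length chromosome 19 was the densest with 101 circles per 100 Mb, followed by chromosome 22 with 93.6. Chromosome X had 27.7 and chromosome 13 had 32.1. The strands were even, with 938 circles on the plus and 931 on the minus strand.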

How the data were processed

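RNA-seq of exosomes gave 4 libraries, 2 per group. Adapters were removed by the authors with Cutadapt 1.9.3, STAR 2.5.1b mapped the reads to hg19, and the authors called junctions with DCC and annotated them with circBase. The deposited values used are counts of junction reads per circRNA, not normalized. Further columns hold log2 CPM, which was not used, and 4 columns of per-library values, named A3 and B3, match no sample and were not used. The table has 12571 circRNAs and 1 emptied line. The members, lists and rules were chosen with earlier results of these data known.

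Counts of circRNAs with at least 5 reads were tested in edgeR 4.0.16 (R 4.3.3, TMM, quasi-likelihood F test, Benjamini-Hochberg). The estimated dispersion was 4.18. DESeq2 1.42.0, other scalings and filters were alternatives. Shares and medians per library were compared by exact two-sided permutation tests (scipy 1.17.1), over 24 measures with a smallest Benjamini-Hochberg adjusted p of 0.471. Fold bounds set 0 reads to 3 counts over the group. Introns, exons and genes came from GENCODE v44 lifted to GRCh37, and ends were matched to chromosome M (blastn 2.17.0, at least 90% over 50 bases). The scripts were tested on simulated data. The counts simulated for the fit had higher means and a lower dispersion than these data, so that test does not cover this depth. Named circles were the 8 with the smallest p in each direction, up to 12 in the most libraries, the 6 with the most reads, the 6 leading hosts by circles and by reads, the 6 at splice sites and the 4 in circBase with the most reads, and 3 for each list or class of small RNA. Other named circles were chosen after their values were seen, as were the measures of like ends and repeat units. Some items are not reported here. Libraries of the same replicate number were not treated as pairs, as nothing in the labels ties them.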

Additional observations from a re-analysis of the deposited data

How the results depend on the processing

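The count of nuclear intronic circRNAs called higher was 4. It became 0 with RLE in place of TMM scaling factors in edgeR, with mapped reads as library sizes and in DESeq2. It was 1 without scaling factors and 2 without chromosome M circRNAs. Leaving out 1 library gave 0 to 16. The count called lower was 0 and became 1 without scaling factors. The count at an adjusted p under 0.05 was 0 and became 5 among circRNAs with at least 10 reads, of which 12 intronic ones were tested, and ran from 0 to 13 when 1 library was left out. With the replicate number as a block 3 were called higher, 0 lower and 0 at an adjusted p. The correlation of the deviations of A1 and B1 from their group means was 0.0226. With 95.2% of all circRNAs read in 1 library, this value cannot tell whether libraries of the same number are paired. With edgeR's filterByExpr no nuclear intronic circRNA was left to test. The difference in the share of reads was -10.2 percentage points, from -15.1 to -5.27 when 1 library was left out, and 0.70 among circRNAs not in circBase, where the sign reversed. Circles in more than 1 library numbered 7 where a library needed 2 reads. Circles at a 5′ splice site numbered 10 with protein coding transcripts only. Identical ends numbered 842 at 6 bases and 81 at 20, and the difference between groups in their share turned from 3.56 percentage points at 10 bases to -4.56 at 6. The cause of these changes was not tested beyond what each setting does. The other alternatives tried for the counts named here kept them within 1.5 times, and those for the shares of reads and of circRNAs, the median span and the motif kept the direction of the difference. At a median of 3 reads a circle, most single circles cannot be compared between groups.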
